A study of Mus musculus with 6 samples.

Results

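The 10 genes described here encode the contractile machinery of smooth muscle and the intermediate filaments of muscle and mesenchymal cells. They were taken by symbol from a table of 13026 genes, where all 10 were present: the actins Acta2 and Actg2, the thin-filament proteins Tagln, Cnn1, Tpm1 and Tpm2, the myosin chains Myh11 and Myl9, and the intermediate filament proteins Des and Vim. RNA of whole kidney was sequenced in 3 libraries from LIGHT knockout (LIGHT-/-) and 3 from wild type (LIGHT+/+) adult male mice of a C57BL/6 J background. LIGHT, also called TNFSF14, is a tumour necrosis factor family cytokine, lost in the whole animal as far as the labels state. Mice of both genotypes had the blood flow to both kidneys stopped for 32 min and restored for 24 h, and no uninjured kidneys were analysed here. Values are FPKM, the authors' read abundance scaled for transcript length and library total, so levels can be set side by side between genes. The comparison asks how loss of LIGHT altered kidney transcripts after this injury.

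Smooth muscle contracts when myosin thick filaments pull on actin thin filaments, after a kinase has phosphorylated the light chain of myosin. In the kidney these genes mark the walls of arteries and arterioles and the renal pelvis, and some of them are also expressed by pericytes, mesangial cells and fibroblasts that have become contractile after injury. Many are controlled by serum response factor (SRF), which binds a short element called the CArG box together with myocardin or a related partner. Vimentin (Vim) is broader and is found in fibroblasts, endothelium, leukocytes and injured tubule cells.

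None of the 10 genes passed the test between genotypes, and they did not follow a single pattern. Tagln, Acta2, Tpm1, Tpm2, Des and Vim had lower means in LIGHT knockout kidneys, at 0.444 to 0.676 of the wild type mean, and each was highest in wild type library 3. Actg2, Myh11 and Cnn1 had higher means in knockout kidneys, and each was highest in knockout library 3. Myl9 followed neither. By limma on log2(FPKM + 1), a moderated linear model, with Benjamini-Hochberg adjustment over 12836 genes, the adjusted p of the 10 lay between 0.592 and 0.906, and 0 were called at 0.05, where 0.117% of all genes tested were called and 0.0935% were called lower in the knockout. At an unadjusted limma p under 0.05, 4 of the 10 were lower in the knockout (Tagln, Acta2, Tpm2 and Vim) and 0 were higher, against 3.74% and 4.34% of all genes tested. An exact permutation test of 3 against 3 libraries cannot give a two-sided p below 0.1.

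Knockout library 3 stood apart from the other libraries, with a Pearson correlation across genes of 0.934 to 0.956 with them, against 0.976 to 0.989 among the other 5. It also held markers of other tissue. Of 5 adipocyte genes in the table, 5 were highest there, with a summed level of 12.8, 19.1 and 125.9 FPKM in knockout libraries 1 to 3, against 13.8, 18.6 and 21.3 in wild type libraries 1 to 3. Outside knockout library 3 nearly all of the sum was Fabp4. Fabp4 stood at 12.1, 18.6 and 35.8 FPKM in knockout libraries and at 12.8, 17.9 and 20.8 FPKM in wild type libraries. Adipoq, the adipocyte hormone adiponectin, stood at 13.1 FPKM in knockout library 3 and was listed at 0 in knockout library 2 and in all wild type libraries. Of 6 urothelial genes, 6 were highest in the same library, with sums of 9.03, 5.01 and 50.3 FPKM in knockout libraries and 2.24, 11.7 and 10.4 FPKM in wild type libraries. No gene was listed with a mean below a fixed floor, given below, in both genotypes. Adipoq, Plin1, Cfd, Upk1a and Upk2 reached it through knockout library 3 alone, so being highest there was set by that floor. Fabp4, Cidec, Upk1b, Krt5 and Krt15 reached it in wild type kidneys, and Upk3a in knockout libraries 1 and 2. For these genes the floor did not decide which library was highest. Proximal tubule genes summed to 1187 to 2081 FPKM in knockout and to 824 to 1018 FPKM in wild type kidneys, and tubular injury genes to 1796 to 6268 FPKM and 6061 to 6741 FPKM, with knockout library 3 at the extreme of both. The part of these differences in the results below was not tested, and in whole tissue fewer cells of a type cannot be told apart from less RNA per cell.

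**Figure D1:**
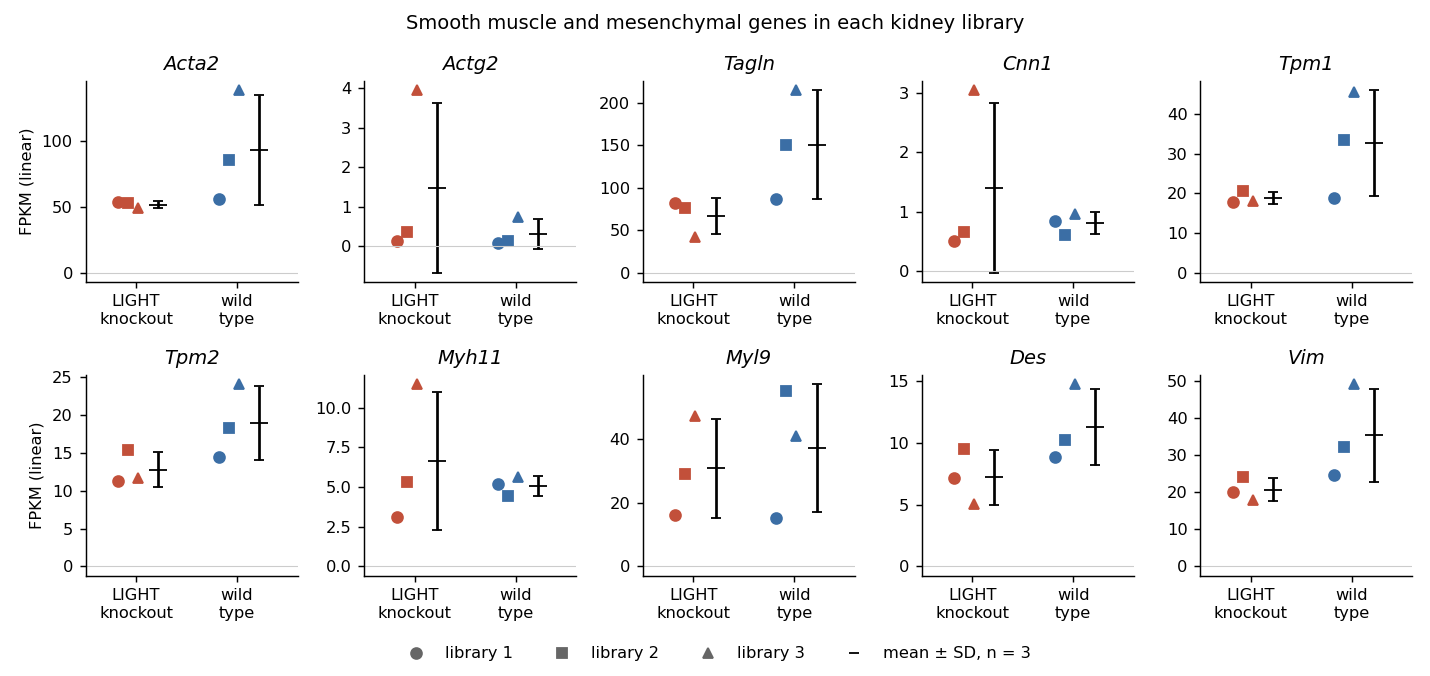
FPKM (linear axes from 0 upward, one panel per gene) of the 10 genes in the LIGHT knockout libraries (red) and the wild type libraries (blue), with the library number by symbol and the mean ± SD (n = 3) in black. Knockout library 3 stands above the rest for Actg2, Cnn1 and Myh11, and wild type library 3 for Acta2, Tagln, Tpm1, Tpm2, Des and Vim.

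The levels spanned a wide range. In wild type kidneys Tagln averaged 151 FPKM, followed by Acta2 at 93.3, Myl9 at 37.0, Vim at 35.3, Tpm1 at 32.7, Tpm2 at 18.9, Des at 11.3, Myh11 at 5.08, Cnn1 at 0.811 and Actg2 at 0.310. Tagln was above Acta2 in 5 of 6 libraries, knockout library 3 being the exception. Myl9, Vim and Tpm1 could not be ranked, since Myl9 was above Vim in 3 of 6 libraries and Vim above Tpm1 in 4 of 6. Tpm1 was above Tpm2, Tpm2 above Des, and Myh11 above Cnn1 in 6 of 6 libraries. Among all symbols of the table, Tagln ranked 736 in knockout and 261 in wild type kidneys, and Acta2 ranked 999 and 489.

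The actins form the thin filament. Acta2 (ENSMUSG00000035783.8, minus strand of chromosome 19, 34241090 to 34255590, mm10) encodes the alpha actin of vascular smooth muscle and of myofibroblasts. It stood at 53.5, 52.6 and 48.8 FPKM in knockout libraries 1 to 3, and at 55.9, 85.6 and 138 FPKM in wild type libraries 1 to 3. The knockout values lay close together and all below the wild type values, although wild type library 1 was only just above them. Acta2 averaged 51.6 ± 2.49 FPKM in knockout and 93.3 ± 41.8 FPKM in wild type kidneys (SD, n = 3 each). The log2 fold change was -0.75 ± 0.30 (SE), with a limma adjusted p of 0.592, and it was -0.42 without wild type library 3.

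Actg2 (ENSMUSG00000059430.14, chromosome 6, 83512905 to 83536265), the gamma actin typical of visceral smooth muscle, was the least abundant in wild type. It stood at 0.118, 0.351 and 3.96 FPKM in knockout libraries, and at 0.0657, 0.116 and 0.748 FPKM in wild type libraries. Only knockout library 3 was above 1 FPKM, and the groups overlapped. Knockout library 3 was 16.9-fold above the mean of the other knockout libraries. Actg2 passed the filter of a mean of 0.5 FPKM through that library alone, so its log2 fold change of 0.62 ± 0.56 (SE, limma adjusted p = 0.726) describes 1 library. Without that library and without the filter it was -0.055. Actg2 made up 0.220, 0.662 and 7.50% of the summed FPKM of both smooth muscle actins in knockout libraries, and 0.117, 0.135 and 0.537% in wild type libraries.

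Tagln, Cnn1, Tpm1 and Tpm2 bind the thin filament. Tagln (ENSMUSG00000032085.4, chromosome 9, 45929619 to 45936058) encodes transgelin, also called SM22 alpha, an actin-bundling protein used as an early marker of smooth muscle. It stood at 81.8, 76.4 and 42.4 FPKM in knockout libraries, and at 86.6, 150 and 215 FPKM in wild type libraries. The groups did not overlap, and the extremes were the third library of each genotype. Tagln averaged 66.9 ± 21.4 FPKM in knockout and 151 ± 64.2 FPKM in wild type kidneys (SD, n = 3 each). Its log2 fold change was -1.12 ± 0.38 (SE), at a limma adjusted p of 0.592. The gene overlaps Pcsk7 and the antisense gene Gm48529 on the opposite strand, as Des overlaps the antisense gene Gm15179. The sources used here do not state whether the counting took strand into account. Without knockout library 3 the log2 fold change of Tagln was -0.83, and without wild type library 3 it was -0.82.

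Tagln and Acta2 kept a similar ratio in most libraries. Tagln over Acta2 was 1.53, 1.45 and 0.868 in knockout libraries, and 1.55, 1.76 and 1.55 in wild type libraries. In knockout library 3 Tagln was thus low relative to Acta2 as well as in FPKM.

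Cnn1 (ENSMUSG00000001349.4, chromosome 9, 22099216 to 22109630) encodes calponin, an inhibitor of actomyosin found in differentiated smooth muscle. It stood at 0.502, 0.660 and 3.05 FPKM in knockout libraries, and at 0.853, 0.610 and 0.968 FPKM in wild type libraries. Knockout library 3 was the single high value, and the other 5 libraries overlapped. The log2 fold change was 0.26 ± 0.37 (SE, limma adjusted p = 0.828), and it was -0.19 without knockout library 3.

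Tropomyosins lie along actin and control where myosin can bind. Tpm1 (chromosome 9, 67022590 to 67049406) stood at 17.9, 20.7 and 18.2 FPKM in knockout libraries, and at 18.9, 33.5 and 45.7 FPKM in wild type libraries. Tpm2 (chromosome 4, 43514711 to 43523765) stood at 11.3, 15.4 and 11.6 FPKM in knockout libraries, and at 14.4, 18.2 and 24.0 FPKM in wild type libraries. For both genes wild type libraries 2 and 3 were above every knockout library, while wild type library 1 lay within the knockout range. The log2 fold changes were -0.67 ± 0.29 for Tpm1 and -0.51 ± 0.20 for Tpm2 (SE), each with a limma adjusted p of 0.592. Without wild type library 3 they were -0.40 and -0.33. Tropomyosin genes give several proteins by splicing, and gene-level FPKM do not separate muscle from non-muscle forms.

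Myh11 and Myl9 belong to the thick filament. Myh11 (ENSMUSG00000018830.8, chromosome 16, 14194535 to 14291372) encodes the myosin heavy chain that is the most specific marker of mature smooth muscle. It stood at 3.12, 5.34 and 11.5 FPKM in knockout libraries, and at 5.19, 4.42 and 5.65 FPKM in wild type libraries. The knockout values enclosed the wild type values on both sides. The log2 fold change was 0.18 ± 0.38 (SE, limma adjusted p = 0.879) and it was -0.25 without knockout library 3. Myh11 supplied 3.01, 5.34 and 15.2% of the summed FPKM of Myh11, Myh9, Myh10 and Myh14 in knockout libraries, and 5.73, 4.98 and 5.37% in wild type libraries.

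Myl9 (ENSMUSG00000067818.6, chromosome 2, 156775420 to 156781658) encodes the regulatory light chain whose phosphorylation starts contraction. It stood at 16.3, 28.9 and 47.1 FPKM in knockout libraries, and at 15.3, 54.9 and 41.0 FPKM in wild type libraries. The first library of each genotype was low, and the ranges overlapped almost wholly. The log2 fold change was -0.21 ± 0.54 (SE, limma adjusted p = 0.906). It turned to 0.17 without knockout library 1 and to 0.16 without wild type library 2.

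Des (ENSMUSG00000026208.9, chromosome 1, 75360329 to 75368579) encodes desmin, the intermediate filament of muscle, which is also made by mesangial cells and pericytes. It stood at 7.16, 9.48 and 5.01 FPKM in knockout libraries, and at 8.81, 10.2 and 14.8 FPKM in wild type libraries. Knockout library 2 lay above wild type library 1, so the groups overlapped. The log2 fold change was -0.59 ± 0.25 (SE, limma adjusted p = 0.592), and it was -0.38 without knockout library 3 and -0.39 without wild type library 3.

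Vim (ENSMUSG00000026728.9, chromosome 2, 13573927 to 13582826) stood at 20.0, 24.2 and 17.96 FPKM in knockout libraries, and at 24.7, 32.1 and 49.1 FPKM in wild type libraries. Every knockout value was below every wild type value, with knockout library 2 and wild type library 1 almost equal. Vim averaged 20.7 ± 3.16 FPKM in knockout and 35.3 ± 12.5 FPKM in wild type kidneys (SD, n = 3 each). Its log2 fold change was -0.70 ± 0.25 (SE), at a limma adjusted p of 0.592, and it was -0.44 without wild type library 3. Des over Vim was 0.358, 0.392 and 0.279 in knockout libraries and 0.357, 0.319 and 0.301 in wild type libraries. Leukocytes also make Vim: 7 neutrophil genes summed to 46.3, 67.1 and 21.0 FPKM in knockout and 64.8, 78.4 and 98.6 FPKM in wild type libraries, and 12 macrophage genes to 153, 133 and 167 FPKM and 148, 160 and 255 FPKM. Both sums were highest in wild type library 3, as Vim was, and their part in the Vim values was not tested. By gene, 7 of 7 neutrophil genes were highest there. Of the 12 macrophage genes, 6 were highest there and 4 in knockout library 3, and Lyz2 alone gave 115 FPKM of the macrophage sum in wild type library 3.

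**Figure D2:**
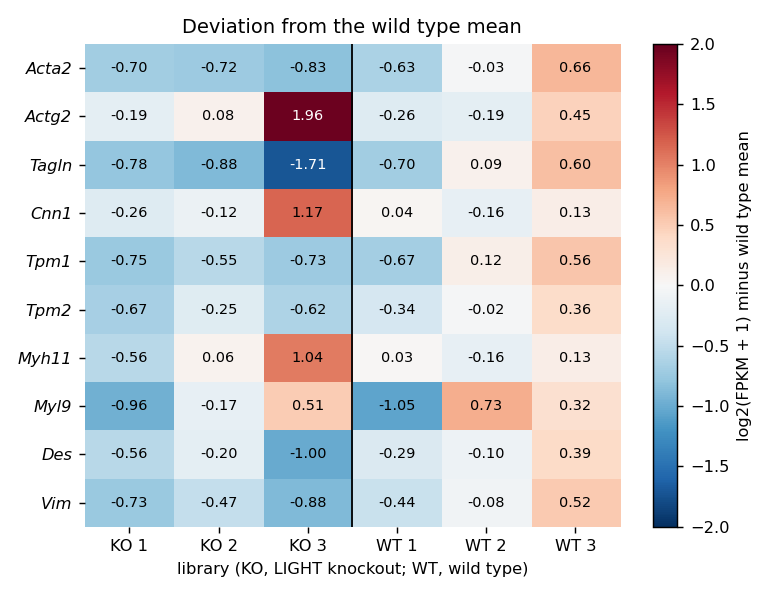
Deviation of each library (columns, KO for LIGHT knockout and WT for wild type) from the wild type mean of each gene (rows) on the log2(FPKM + 1) scale, red above and blue below. In knockout library 3 Actg2 stood at 1.96, Cnn1 at 1.17 and Myh11 at 1.04, while Tagln stood at -1.71 and Vim at -0.88.

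Of the 10 genes, 3 had no overlap between genotypes with the knockout lower (Tagln, Acta2 and Vim) and 0 with the knockout higher, against 8.8% and 7.76% of all genes tested. By sign alone 7 of 10 were lower, against 52.1% of all genes tested. The median log2 fold change of the 10 was -0.55, and that of all genes tested was -0.01. Wild type libraries also differed among themselves: library 3 was 2.48-fold above library 1 for both Tagln and Acta2 and 1.99-fold for Vim. Being highest in wild type library 3 was not particular to these genes. It held for 19 of 27 fibroblast and mesenchymal genes, 12 of 16 regulators of smooth muscle genes and 7 of 7 neutrophil genes. It held for 18 of 32 genes of contraction and its regulation. Among pericyte and mesangial genes it held for 4 of 11, and among proximal tubule genes for 0 of 11. The share over all genes was not computed. Without wild type library 3 the median of the 10 was -0.36. Without knockout library 3, 9 of the 10 genes passed the filter, 9 of 9 were lower where 53.6% of genes tested were, and the median was -0.57. In that comparison 0 of 9 had an unadjusted limma p under 0.05, where 3.3% of genes tested were lower at that threshold, and 0 of 9 had an adjusted p under 0.05, where 0.0865% of genes tested did. The smallest limma adjusted p was 0.699.

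**Figure D3:**
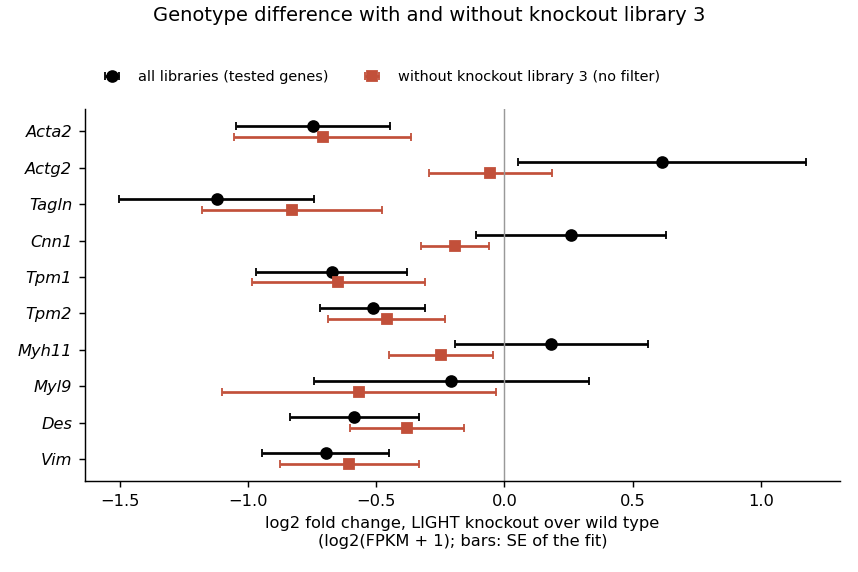
Log2 fold change of LIGHT knockout over wild type on the log2(FPKM + 1) scale for the 10 genes, with all 6 libraries (black circles) and without knockout library 3 and without the filter on low values (red squares); bars are the SE of the fit. Actg2, Cnn1 and Myh11 lie above 0 with all libraries, at 0.62, 0.26 and 0.18, and below 0 without that library.

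For description, the genes were grouped by the library in which each was highest. Among the 6 genes highest in wild type library 3, the Pearson correlation of log2(FPKM + 1) was 0.839 to 0.981 over 15 pairs. Among Actg2, Cnn1 and Myh11, highest in knockout library 3, it was 0.920 to 0.965 over 3 pairs. Across these sets all 18 pairs had a negative correlation, from -0.581 to -0.108. Myl9 had 0.135 to 0.580 with the first set and 0.416 to 0.508 with the second. These correlations describe 6 shared libraries, and the sets were formed after the values were seen. Genes grouped by a shared highest library tend to correlate within a set and not across sets, so the correlations are no support for the sets. Actg2 and Cnn1 were above 1 FPKM only in knockout library 3, so the values of the second set rest largely on that library.

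Promoter sequences show how the CArG box is placed in members that did not move together. The RefSeq promoter table (GRCm38.p6, 250 bases before to 50 after each start) held 7 of the 10 genes: Acta2, Cnn1, Myl9, Tpm1, Tpm2, Des and Vim. An exact CArG box, which reads the same on both strands, was in the Myl9 window and in 1.63% of 32851 windows of all genes. With at most 1 mismatch, Acta2, Myl9 and Tpm1 each held 2 matches, as 3.7% of all windows held 2 or more, and Cnn1, Tpm2, Des and Vim held none. Acta2 and Myl9 are shown because both carry 2 such matches while their values differed in pattern. Capitals mark the matches, which begin 84 and 34 bases before the start in Acta2 (chr19:34255324-34255623, minus strand) and 161 and 99 bases before it in Myl9 (chr2:156775214-156775513, plus strand). A match is not evidence of binding, and no match says only that these letters are not in the window.
Acta2: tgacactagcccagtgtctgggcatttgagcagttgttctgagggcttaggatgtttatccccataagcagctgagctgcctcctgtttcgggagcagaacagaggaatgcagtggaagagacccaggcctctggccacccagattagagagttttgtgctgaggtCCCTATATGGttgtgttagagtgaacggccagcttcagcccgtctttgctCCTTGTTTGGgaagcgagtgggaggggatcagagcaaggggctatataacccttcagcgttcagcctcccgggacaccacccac
Myl9: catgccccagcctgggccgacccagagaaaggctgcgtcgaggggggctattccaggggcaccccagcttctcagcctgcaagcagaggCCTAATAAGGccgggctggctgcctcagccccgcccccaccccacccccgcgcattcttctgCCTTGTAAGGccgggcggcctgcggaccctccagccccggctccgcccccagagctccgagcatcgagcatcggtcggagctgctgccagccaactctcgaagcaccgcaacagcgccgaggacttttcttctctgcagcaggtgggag

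**Figure D4:**
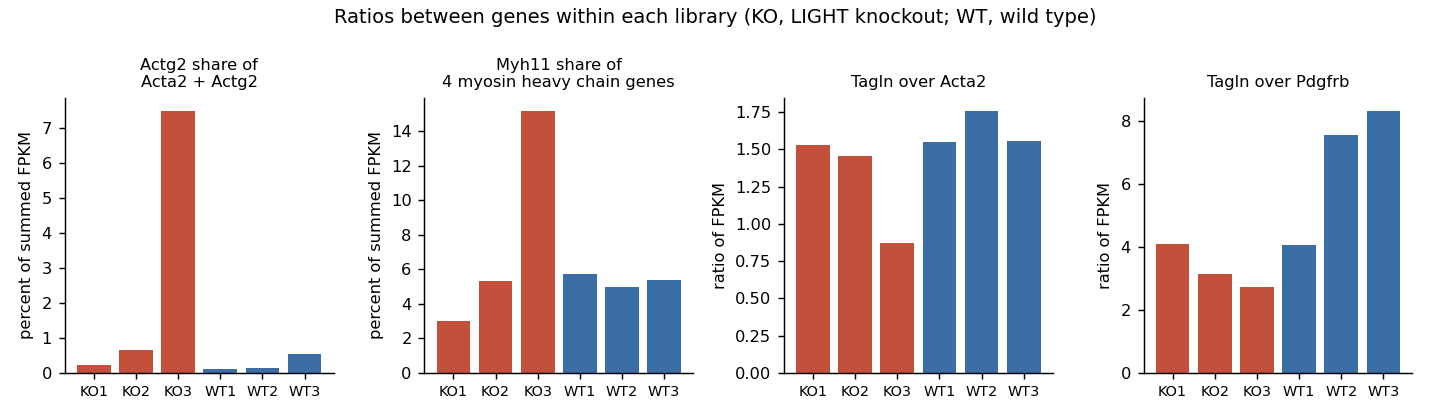
Ratios between genes within each library (bars, from 0; KO for LIGHT knockout in red, WT for wild type in blue): the percent of Acta2 + Actg2 FPKM from Actg2, the percent of FPKM of Myh11, Myh9, Myh10 and Myh14 from Myh11, Tagln over Acta2, and Tagln over Pdgfrb. Knockout library 3 stands out in the first 3 panels, at 7.50%, 15.2% and 0.868, and wild type libraries 2 and 3 in the last, at 7.55 and 8.30.

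Genes of contraction and its regulation were close to the median of all genes. Of 31 tested, 14 were higher and 17 lower in the knockout, the median log2 fold change being -0.07, and 0 passed. Ppp1r12a, the subunit that directs myosin phosphatase to myosin, averaged 16.8 ± 1.05 FPKM in knockout and 14.1 ± 1.34 FPKM in wild type kidneys, and Itpr1, a calcium release channel, 21.6 ± 1.44 and 18.5 ± 1.83 (SD, n = 3 each). Pdlim7 and Fhl2, LIM domain proteins of the actin cytoskeleton, averaged 6.51 ± 2.71 and 14.7 ± 1.99 FPKM in knockout kidneys, against 10.2 ± 2.42 and 17.3 ± 1.58 in wild type. The limma adjusted p of these 4 genes lay between 0.592 and 0.613. At an unadjusted limma p under 0.05 there were 0 of the 31. Mylk, the kinase that phosphorylates Myl9, and Smtn, the actin-binding protein smoothelin, were named after their values were seen. Mylk averaged 25.6 ± 3.95 FPKM in knockout and 24.4 ± 3.67 FPKM in wild type kidneys, and Smtn 33.6 ± 6.39 and 35.3 ± 4.78.

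Paralogues of the 10 genes include cytoplasmic actins, non-muscle myosins and broadly expressed tropomyosins. Of 15 tested, 5 were higher and 10 lower, with a median of -0.21, and 0 passed. Tpm4 averaged 172 ± 55.6 FPKM in knockout and 255 ± 46.9 FPKM in wild type kidneys, Tpm3 averaged 45.6 ± 13.1 and 60.5 ± 5.21, and the cytoplasmic actin Actg1 352 ± 96.9 and 468 ± 26.8 (SD, n = 3 each). In these 3 genes the groups did not overlap. Myh14, a non-muscle myosin heavy chain, averaged 4.80 ± 1.12 FPKM in knockout and 3.28 ± 0.344 FPKM in wild type kidneys, also without overlap. Myl12b, a non-muscle myosin light chain named after its values were seen, stood at 79.3, 80.8 and 91.9 FPKM in knockout libraries and at 74.2, 76.7 and 78.2 FPKM in wild type libraries. Thus 3 of 15 were lower and 2 of 15 higher without overlap, where 8.8% and 7.76% of all genes tested were. The limma adjusted p of Tpm4, Tpm3, Actg1 and Myh14 lay between 0.592 and 0.598. At an unadjusted limma p under 0.05 there was 1 of the 15, Myh14, which was higher, as 4.34% of all genes tested were. Without knockout library 3 the median of the list was -0.09. Of the FPKM of Tagln plus Tagln2, its non-muscle paralogue, Tagln made up 31.3, 32.4 and 35.3% in knockout libraries. In wild type libraries it made up 35.6, 52.1 and 55.8%. The groups did not overlap, but knockout library 3 and wild type library 1 were almost equal. Shares of 31-base words with transcripts of other genes were at most 1.39% in the 10 genes, the highest being Acta2, a small overlap with copies elsewhere.

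Of 16 regulators of smooth muscle genes tested, which include SRF and its partners and genes of Notch and TGF-beta signalling, 4 were higher and 12 lower, with a median of -0.12 (-0.04 without knockout library 3), and 0 passed. Mef2d averaged 12.5 ± 2.498 FPKM in knockout and 15.7 ± 2.08 FPKM in wild type kidneys, Elk3, an SRF partner, 8.14 ± 0.860 and 10.4 ± 2.59, Gata6 0.912 ± 0.196 and 1.33 ± 0.305, and Heyl, a Notch target, 1.96 ± 0.0323 and 1.68 ± 0.0756 (SD, n = 3 each). Their limma adjusted p lay between 0.600 and 0.653. Srf itself, named after its values were seen, averaged 10.5 ± 2.02 FPKM in knockout and 11.9 ± 2.69 FPKM in wild type kidneys.

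Markers of pericytes and mesangial cells were split. Of 11 tested, 7 were higher and 4 lower, with a median of 0.16 (0.03 without knockout library 3), and 0 passed. Itga8, an integrin chain of mesangial cells, stood at 1.62, 2.56 and 4.65 FPKM in knockout libraries and at 1.91, 1.55 and 1.88 in wild type libraries. Abcc9 and Kcnj8, which form a potassium channel of pericytes, averaged 1.46 ± 0.724 and 2.28 ± 0.696 FPKM in knockout kidneys, against 0.778 ± 0.0929 and 1.79 ± 0.213 in wild type (SD, n = 3 each). Gata3, a transcription factor of mesangial cells and collecting duct, stood at 3.68, 4.34 and 8.45 FPKM in knockout libraries. In wild type libraries it stood at 3.71, 3.76 and 4.23 FPKM. Its log2 fold change was 0.34, and 0.03 without knockout library 3. The 4 lower genes were Pdgfrb, Mcam, Notch3 and Cspg4, named after their values were seen, and each was highest in wild type library 3, as Tagln and Acta2 were. Mcam, an adhesion molecule, stood at 11.04, 11.8 and 7.76 FPKM in knockout libraries and at 9.59, 10.7 and 17.2 FPKM in wild type libraries. The whole list summed to 57.1, 77.8 and 73.7 FPKM in knockout libraries and to 60.7, 61.1 and 81.9 FPKM in wild type libraries. Set against Pdgfrb, the receptor that marks pericytes and other stromal cells, Tagln was 4.09, 3.13 and 2.73 times as high in knockout libraries and 4.04, 7.55 and 8.30 times as high in wild type libraries. Wild type library 1 lay within the knockout range, and the other wild type libraries were above it.

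Fibroblast and mesenchymal genes were split. Of 27 tested, 12 were higher and 15 lower, with a median of -0.06, and 0 passed. Sparc, a matrix-binding glycoprotein, averaged 114 ± 23.9 FPKM in knockout and 155 ± 26.9 FPKM in wild type kidneys, and Tnc, tenascin C, 11.9 ± 1.66 and 20.9 ± 11.5 (SD, n = 3 each), both without overlap. Thus 2 of 27 were lower and 0 of 27 higher without overlap, where 8.8% and 7.76% of all genes tested were. Dcn, the matrix proteoglycan decorin, stood at 7.39, 12.3 and 28.1 FPKM in knockout libraries and at 7.77, 6.94 and 10.4 FPKM in wild type libraries, so that its high value was in the same library as those of Actg2, Cnn1 and Myh11. S100a4 averaged 11.8 ± 3.37 FPKM in knockout and 16.6 ± 5.51 FPKM in wild type kidneys. Endothelial genes had 5 of 10 higher and 5 lower, with a median of 0.01, and summed to 166 to 208 FPKM in knockout and 170 to 217 FPKM in wild type kidneys. The marker of the renin-producing cells of the afferent arteriole, Ren1, stood at 60.3, 74.0 and 42.1 FPKM in knockout libraries and at 62.6, 77.1 and 37.4 FPKM in wild type libraries, with library 3 lowest in each genotype. Ren1 was the 1 of 4 renin cell genes that was higher in the knockout, with a log2 fold change of 0.019. The 3 lower genes were Akr1b7 (-0.43), Gja5 (-0.32) and Crip1 (-0.12), with limma adjusted p between 0.592 and 0.848. Among the regulator, pericyte and mesangial, fibroblast and mesenchymal, and endothelial lists, 0 genes had an unadjusted limma p under 0.05. Of 9 skeletal muscle markers only Mylpf was in the table, at 0.424 to 1.08 FPKM in knockout and 0.176 to 0.402 FPKM in wild type libraries.

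**Figure D5:**
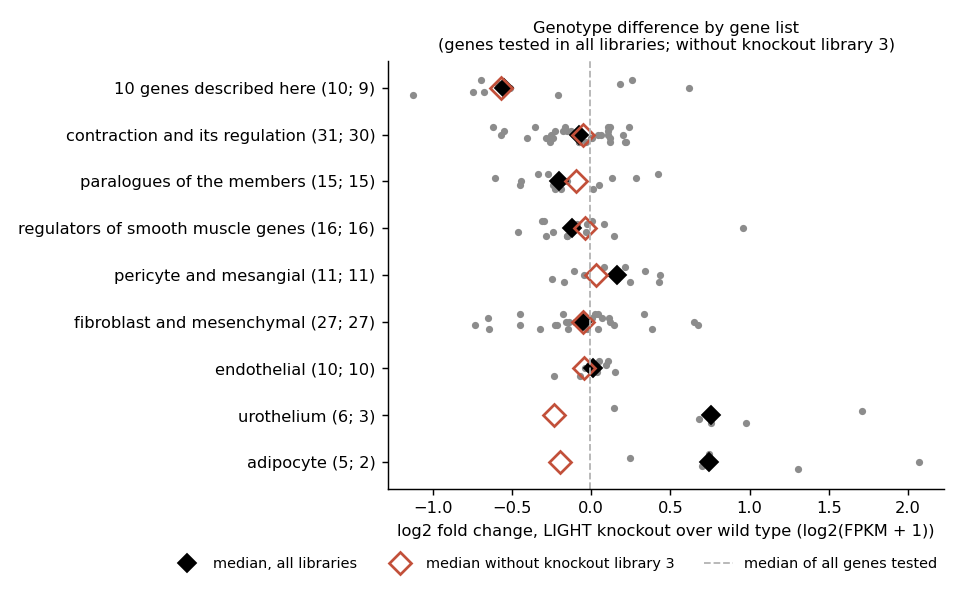
Log2 fold change of LIGHT knockout over wild type on the log2(FPKM + 1) scale for each gene (grey dots) of the 10 genes described here and of related lists, with the median over all libraries (black) and without knockout library 3 (open red), and the median of all genes tested as a dashed line; numbers after each name are genes tested with all libraries and without that library. The 10 genes have a median of -0.55 with all libraries, and the 9 tested without that library have -0.57. Urothelial and adipocyte genes have medians of 0.76 and 0.74 with it, over 6 and 5 genes. The 3 and 2 of them that passed the filter without it have medians below 0, so these medians are over different genes.

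Genes like the average profile of the members were looked for among 11805 others with a mean of at least 1 FPKM. The measure was the Pearson correlation over the 6 libraries with the mean standardised level of the 8 contractile members above that mean. That profile averages members of opposing pattern, and in knockout library 3 it stood at -0.10. The 5 highest were Eef2k, Arhgap35, Lancl3, Ms4a6c and Maml3, with correlations of 0.994, 0.992, 0.992, 0.991 and 0.990. Eef2k, the kinase of a translation elongation factor, stood at 1.09, 1.42 and 1.41 FPKM in knockout libraries and at 1.36, 1.76 and 2.17 FPKM in wild type libraries. None of these 5 was among the 5 nearest to any single member. Genes nearest to single members were named after the values were seen. The alpha tubulin gene Tuba1a was nearest to Tagln (0.999), at 61.7, 59.3 and 38.3 FPKM in knockout libraries and at 61.3, 92.4 and 118 FPKM in wild type libraries. Axl, a receptor tyrosine kinase, was among the 5 nearest to Vim (0.992), at 17.3, 21.4 and 15.5 FPKM in knockout libraries and at 20.0, 24.1 and 33.9 FPKM in wild type libraries. With 6 libraries and 11805 genes such values are a description only.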

How the data were processed

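RNA of whole kidney was measured in 6 libraries, grouped by the genotype in the sample titles. Per the labels' protocols, TRIzol was used for RNA extraction and a stranded KAPA kit for the libraries. The authors deposited FPKM for each gene. The submitters' processing notes name FastQC, HISAT2, StringTie and mm10, with neither versions nor roles; no source used here gives the annotation. Each library's own file was identical to the joint table in all 13026 genes. In every row the higher group mean was at least 0.500 FPKM, so the table holds no gene below that in both groups. FPKM carry no read counts, so depth and counting error are unknown. Nothing in the labels says that the libraries come from separate mice, and the p-values then reflect only the spread among them, which may be technical. Tnfsf14, which encodes LIGHT, was not analysed here.

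The 12836 genes that averaged 0.5 FPKM or more were tested on log2(FPKM + 1), LIGHT knockout minus wild type, with limma 3.58.1 in R 4.3.3 (empirical Bayes with trend, two-sided, Benjamini-Hochberg over all genes tested, threshold 0.05). Fold changes on this scale understate the change of low genes. The fit was tested on simulated data. Means and SD are of FPKM. The 10 genes and the lists were chosen with earlier results of these data known, so lists are described by counts and medians. From each list the up to 4 genes of smallest p could be named; lists of cell types far from the members are given by sums and counts, and exceptions are stated. Older symbols stood in for 5 listed genes. Positions are from GENCODE M21, of the same assembly as mm10. The alternatives were other pseudocounts, filters and scalings, other variance models, a replicate block and each library left out.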

Additional observations from a re-analysis of the deposited data

How the results depend on the processing

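Across 18 alternatives (16 for Actg2), Tagln, Acta2, Tpm1, Tpm2, Des and Vim kept a lower level in the knockout, and 0 of the 10 genes passed the threshold in any of them. The median of the 10 genes ranged from -0.73 without wild type library 1 to -0.36 without wild type library 3 when single libraries were left out, and was -0.33 with library weights. Direction reversed in some alternatives for Cnn1, Myh11, Myl9 and Actg2. Cnn1 was -0.023 with library weights and ranged from -0.19 without knockout library 3 to 0.52 when single libraries were left out. Myh11 ranged from -0.25 without knockout library 3 to 0.55, and Myl9 from -0.73 to 0.17 (without knockout library 1). Without knockout library 3 and without the filter, an alternative added after the data were seen, Actg2 was -0.055, Myh11 -0.25 and Cnn1 -0.19. With the filter Actg2 could not be fitted without that library, nor with a minimum mean of 1 FPKM.

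The number of genes called over the whole table was 15, and 52 with library weights. It was 7 and 0 without knockout libraries 1 and 2, 0, 6 and 0 without wild type libraries 1, 2 and 3, and 11 without knockout library 3, a range of 0 to 11. The replicate numbers did not pair the libraries: same-numbered libraries had correlations of 0.146, -0.133 and -0.019 between their deviations from the group means, and not every library correlated best with its own number. With the number as a replicate block 0 genes were called. The cause of these shifts was not tested. Depth limits could not be set from FPKM.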

Other observations

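Tead1, which encodes a transcription factor of the Hippo pathway that also binds smooth muscle promoters, was named after its values were seen. It stood at 16.8 FPKM in knockout library 1 and at 1.83 and 3.71 FPKM in knockout libraries 2 and 3, against 1.80, 2.41 and 2.36 FPKM in wild type libraries. In knockout library 1, Acta2, Tagln, Myh11 and Cnn1 stood at 53.5, 81.8, 3.12 and 0.502 FPKM, each below the lowest wild type value. So were Tpm1, Tpm2, Des and Vim, while Myl9 and Actg2, at 16.3 and 0.118 FPKM, were above wild type library 1. In knockout libraries 2 and 3, Acta2, Tagln and Vim were also below the lowest wild type value. The share of all genes below it in knockout library 1 was not computed. The high Tead1 value rests on 1 library, and any link between Tead1 and these genes was not tested.

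Set against Pdgfrb within each library, Acta2 was 2.68, 2.15 and 3.14 times as high in knockout libraries and 2.61, 4.30 and 5.35 times as high in wild type libraries. Myh11 over Acta2 was 0.0584, 0.102 and 0.236 in knockout libraries and 0.0927, 0.0516 and 0.0408 in wild type libraries.

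Of 11 proximal tubule genes, 10 were higher and 1 lower in the knockout (median log2 fold change 0.68, and 0.42 without knockout library 3), and 11 tubular injury genes had 1 higher and 10 lower (-0.68, and -0.10 without that library). All 7 neutrophil genes tested were lower (-0.66, and -0.38 without that library), and macrophage genes had 6 of 12 in each direction (-0.04), and 3 higher and 9 lower without that library (-0.17). Podocyte genes had 1 of 6 higher and 5 lower (-0.16), and 6 of 6 lower without that library (-0.23). Renin cell genes had 1 of 4 higher and 3 lower with and without it (-0.22 in both). Red cell genes had 5 of 5 higher (0.16), and 3 higher and 2 lower without it (0.016). In each of these lists 0 genes passed the limma test adjusted over all genes. At an unadjusted limma p under 0.05 there were 9 proximal tubule genes and 1 red cell gene, all higher, and 2 tubular injury, 2 neutrophil, 2 macrophage, 1 podocyte and 1 renin cell gene, all lower. Of all genes tested, 4.34% were higher and 3.74% lower at that threshold.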
